A study of Mus musculus with 10 samples.

Results

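AMPA and NMDA receptors are the ion channels through which glutamate excites most neurons of the cortex, and the genes of 10 of their subunits were followed here across the cell types of the mouse medial prefrontal cortex. The 10 genes were chosen by symbol (Gria1 to Gria4, Grin1, Grin2a to Grin2d and Grin3a), and all 10 were found among the 30406 genes that the deposited gene lists shared. AMPA receptors are assemblies of 4 subunits drawn from the products of the Gria genes and carry the fast part of the synaptic response. NMDA receptors pair the obligatory subunit encoded by Grin1 with GluN2 subunits (Grin2a to Grin2d) or GluN3 subunits (such as Grin3a). Those with GluN2 open when glutamate and the coagonist glycine or D-serine are bound while the membrane is depolarised, whereas receptors of GluN1 and GluN3 alone are opened by glycine. The GluN2 subunit sets the kinetics and magnesium block of the channel, and GluN3A subunits lower its calcium permeability.

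The tissue came from male C57BL/6N mice over 2 months old that were ranked by a social dominance test in a tube. Dominant mice of rank 1 gave 5 libraries and subordinate mice of rank 4 gave another 5, with no other treatment in the labels, and a library pooled tissue of 2 to 3 mice. The library was therefore the replicate, and it does not separate 1 mouse from another. The tissue of both ranks was digested for 60 min at 37 °C with papain, in a medium to which the NMDA receptor blocker DL-2-amino-5-phosphonopentanoic acid had been added at 25 mM. The question the design poses for these genes is whether their transcripts differ with rank, and the cell types show in which cells each subunit was transcribed.

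The libraries held 4442750 to 29278466 unique molecular identifiers (UMIs, tags that let each captured RNA be counted once) over 1838 to 15826 cell barcodes, and the 10 subunits took 431854 of the 145560790 UMIs. Any 2 libraries shared at most 104 barcodes, which was 1.70% of the smaller library. Cell types were named from marker genes after clustering without the 20 genes whose symbols begin with Gria, Grin, Grik or Grid and a digit, so each name stands for cells resembling that type. Levels are in CPM, a gene's UMIs scaled to the total UMIs of the same cell type and library, given as mean ± SD over libraries with at least 20 cells of the type. Because the reads come from transcript ends, levels of the same gene are compared between cell types and no gene is ranked against another gene.

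Replicates 2 and 3 of both ranks stood apart in these genes. In excitatory neurons Gria2 was at 911 and 959.6 CPM in rank 1 replicates 2 and 3 and at 818 and 824 CPM in the same replicates of rank 4. The other 6 libraries lay between 1624 and 2144 CPM. The mean of the 4 low libraries was 47.6% of the mean of the other 6 for Gria2, 43.9% for Gria3, 36.6% for Grin2a, 48.0% for Grin2b and 49.7% for Grin1, but 82.9% for Gria1 and 89.2% for Grin3a. Both ranks held 2 such libraries. Results below are paired within libraries or set beside their values without replicates 2 and 3 wherever these changed a call.

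The 2 receptor families differ in the lining of the pore. The following stretches of 30 coding bases are shown because the codon in capitals encodes the pore residue that controls calcium flow in each family. They are read 5′ to 3′ along the transcript from the GENCODE transcripts on GRCm38.
Gria1: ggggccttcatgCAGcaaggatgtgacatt
Gria2: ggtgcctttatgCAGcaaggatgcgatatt
Gria3: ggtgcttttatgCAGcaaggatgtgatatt
Gria4: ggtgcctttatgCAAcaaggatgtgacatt
Grin1: ggcgtcctgctcAACtctggcattggggaa
Grin2a: ggcctggtcttcAACaattctgtgcccgtc
Grin2c: gcactggtcttcAACaactctgttcccatc
Grin2d: gccctggtgttcAACaactccgtgccagtg
On the plus strand lie the stretches of Gria1 (chr11:57243082-57243111) and Gria3 (chrX:41610253-41610282). On the minus strand lie those of Gria2 (chr3:80706896-80706925), Gria4 (chr9:4464122-4464151), Grin1 (chr2:25297371-25297400), Grin2a (chr16:9653546-9653575), Grin2c (chr11:115253848-115253877) and Grin2d (chr7:45854378-45854407). No stretch is shown for Grin2b or Grin3a. The Gria codons encode glutamine in the genome. In Gria2 RNA that codon is the Q/R editing site, which the editing enzyme ADAR2 (gene Adarb1) rewrites, and AMPA receptors with an edited GluA2 subunit pass little calcium. The Gria2 codon is codon 607 counted from the start codon and lies in exon 11. The NMDA subunits shown carry an asparagine codon at the matching place, where magnesium block and calcium passage meet. UMI counts do not read the edited base, so the share of Gria2 among AMPA transcripts is the measure used below.

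On GRCm38 the AMPA genes are Gria1 on chr11:57011387-57330244, Gria2 on chr3:80681450-80802835, Gria3 on chrX:41400854-41678601 and Gria4 on chr9:4417896-4796234. The NMDA genes are Grin1 on chr2:25291181-25319187, Grin2a on chr16:9567898-9995560, Grin2b on chr6:135713233-136173511, Grin2c on chr11:115249169-115267243, Grin2d on chr7:45831883-45878378 and Grin3a on chr4:49661611-49845744. On the opposite strand, Grin1 overlaps its antisense gene Grin1os, Grin2d overlaps Kdelr1 and Gm45441, Grin2c overlaps Gm25837, and Grin2b overlaps Gm14329, Gm14330, Gm22892 and Gm26653. On its own strand Grin3a overlaps Ppp3r2 and Gm12459, and Gria2, Gria3, Gria4 and Grin2d each overlap 1 predicted gene (Gm25749, Gm22413, Gm23811 and Gm22098). Strand use in the authors' counting was not given in the sources used here. Whether the counts separate reads of these genes from those of the subunit genes they overlap was therefore not known. Gria1 and Grin2a overlap no other annotated gene.

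Neurons and a few glial types carried the subunits, and most other types did not exceed the level of free RNA. Droplets hold RNA released by other cells, so microglia, whose own markers summed to 16503 ± 5587 CPM (n = 10), served as the background. There Gria2 was at 228 ± 211 CPM, Gria1 at 64.8 ± 49.7 CPM and Grin2b at 97.7 ± 87.6 CPM (n = 10 libraries each). This background varied with the library, from 10.6 to 668 CPM for Gria2. A Gria2 UMI was seen in 26.9% of microglia at a median of 1283 UMIs per cell and in 90.7% of excitatory neurons at a median of 2390. With each cell thinned to 1000 UMIs and shallower cells left out (1002 microglia and 2128 excitatory neurons), the shares were 16.6% and 78.1%.

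**Figure D1:**
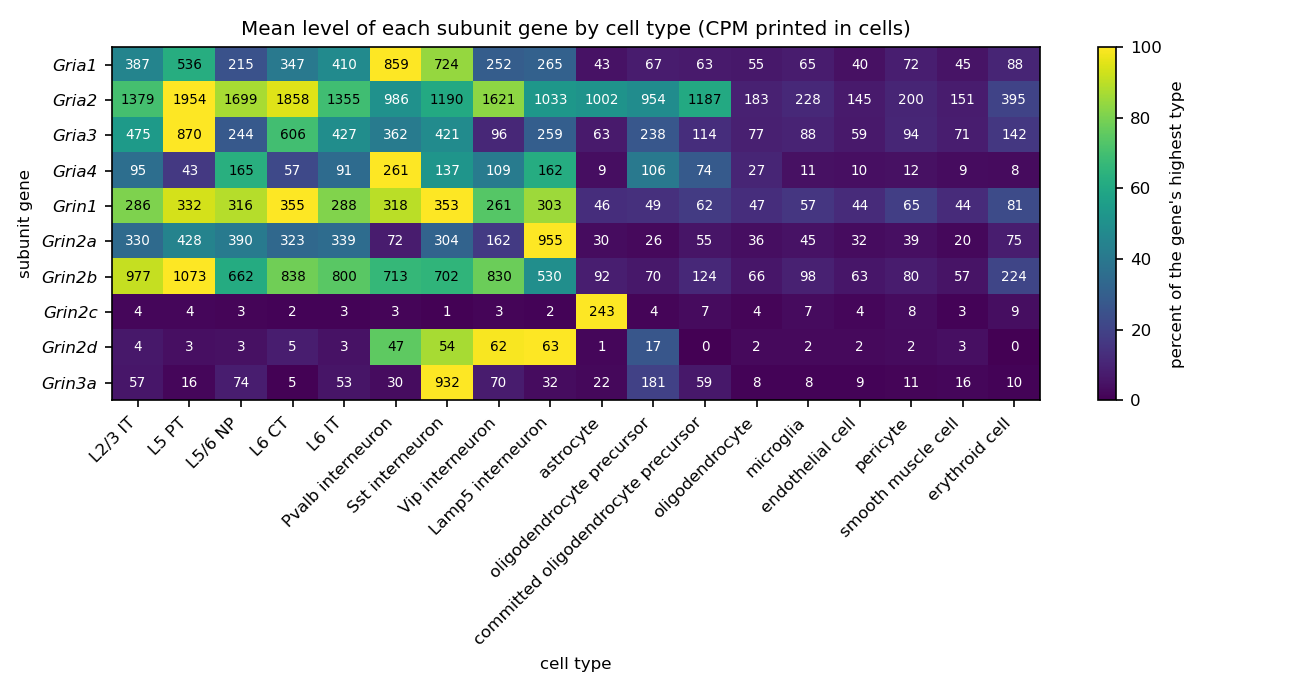
Mean level of the 10 subunit genes (rows) in 18 cell types (columns). Numbers are mean CPM over libraries and colours give the percent of each gene's highest type. Grin2c is bright in astrocytes, Grin3a in Sst interneurons and Grin2a in Lamp5 interneurons, while Grin1 is bright in all 9 neuronal subclasses.

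Grin1, the subunit every NMDA receptor needs, was found in each neuronal subclass. Its means come from 6 to 10 libraries per type, which were not the same ones for each type. Its mean lay between 261 ± 30.3 CPM in Vip interneurons (n = 6) and 355 ± 77.9 CPM in layer 6 corticothalamic (L6 CT) neurons (n = 8). Of 17 neighbouring pairs in its order of cell types, 2 differed by more than the SD of the paired difference. They were L2/3 intratelencephalic (IT) neurons above Vip interneurons, by 103 ± 64.1 CPM in 6 of 6 libraries, and Vip interneurons above erythroid cells. The means of these 2 neuron types over all their libraries, 286 and 261 CPM, lay closer together than in the shared libraries. Outside neurons the means of Grin1 in the 9 other types of that order lay between 43.5 and 81.4 CPM, around the 56.6 ± 58.6 CPM of microglia.

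Grin2c was an astrocyte transcript in this tissue. Rank 1 replicates 1 to 5 had 184, 266, 147, 387 and 302 CPM in astrocytes, and rank 4 replicates 1 to 5 had 167, 299, 185, 330.4 and 167 CPM. The 2 ranks overlapped throughout. Astrocytes averaged 243 ± 83.8 CPM, and no other type averaged above 8.57 CPM. The paired log2 difference from microglia, with 10 CPM added, was 3.84 ± 0.59 and positive in 10 of 10 libraries. After thinning, 19.5% of astrocytes held a Grin2c UMI against 0.7% of microglia. Grin2c also appeared among the 10 leading genes of 1 astrocyte cluster, although it had no part in the clustering. The GluN2C subunit gives channels with weak magnesium block.

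Gria2 stood well above background in astrocytes and in the oligodendrocyte lineage before maturation. Astrocytes had 1002 ± 457 CPM (n = 10), oligodendrocyte precursors 954 ± 372 CPM (n = 10) and committed precursors 1187 ± 396 CPM (n = 7), against 183 ± 151 CPM in oligodendrocytes (n = 10). The paired log2 difference between committed precursors and oligodendrocytes was 3.02 ± 1.75 and positive in 7 of 7 libraries. Oligodendrocytes did not stand above microglia, with a paired log2 difference of -0.32 ± 0.55 and a higher value in 4 of 10 libraries.

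Oligodendrocyte precursors, dividing glia that receive synapses from neurons, also had 4 subunits besides Gria2 above the level of microglia in each library. Over microglia, Grin3a was higher by 3.45 ± 0.41 on the log2 scale, Gria4 by 2.56 ± 0.61, Gria3 by 1.79 ± 0.84 and Grin2d by 1.21 ± 0.45, each in 10 of 10 libraries. Sst interneurons had higher means of all 4. The levels in precursors were 181 ± 73.7 CPM for Grin3a, 106 ± 43.2 CPM for Gria4, 238 ± 114 CPM for Gria3 and 16.7 ± 6.10 CPM for Grin2d. Grin1 was not above microglia there, at 49.2 ± 42.3 CPM with a higher value in 5 of 10 libraries. A Grin1 level near background beside clear Grin3a and Grin2d is a value of these counts and does not say that the subunit is missing. Grin3a was second only to Sst interneurons in its order, and the difference from the next type, L5/6 near-projecting (NP) neurons, was 141 ± 40.7 CPM in 7 of 7 libraries.

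Excitatory and inhibitory neurons differed in 8 of the 9 subunits tested. In the edgeR quasi-likelihood test with the library as block and Benjamini-Hochberg adjustment over 10829 genes, 47.9% of all genes passed an adjusted p of 0.05, so a difference as such was common. Higher in inhibitory neurons were 4 subunits (background 25.2% of genes) and lower were 4 (background 22.7%). The median log2 difference was 0.01 over the tested subunits and 0.02 over all genes. Grin2c did not pass the filter on low counts. Markers of excitatory neurons summed to 1888 ± 446 CPM in excitatory and 194 ± 156 CPM in inhibitory neurons, and markers of inhibitory neurons to 29.2 ± 24.2 and 3888 ± 506 CPM.

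Grin2d and Grin3a showed the widest gaps. Grin2d ran from 1.78 to 4.74 CPM (median 3.71) in excitatory neurons and from 31.7 to 73.6 CPM (median 52.0) in inhibitory neurons of the 10 libraries. The ranges did not overlap, and the log2 difference was 3.80 ± 0.14 (SE, edgeR adjusted p = 6.51e-18). GluN2D makes receptors with very slow closing and weak magnesium block. Grin3a ran from 31.4 to 62.0 CPM (median 43.7) in excitatory and from 166 to 683 CPM (median 263) in inhibitory neurons. Its log2 difference was 2.92 ± 0.11 (edgeR adjusted p = 1.00e-17), and it came mostly from Sst cells, as given below.

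Gria1 and Gria4 were higher in inhibitory neurons in 10 of 10 libraries. Gria1 had a median of 372 CPM (273 to 446) in excitatory and 475 CPM (337 to 782) in inhibitory neurons, a log2 difference of 0.57 ± 0.07 (edgeR adjusted p = 1.95e-07). Gria4, the subunit with the fastest gating, had a median of 66.7 CPM (48.9 to 136) and 99.9 CPM (68.6 to 258), a log2 difference of 0.81 ± 0.09 (edgeR adjusted p = 3.07e-08). The ranges of both genes overlapped between the classes, and both also passed without the library block.

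Gria2, Gria3 and Grin2b were lower in inhibitory neurons in 10 of 10 libraries, as the plot of paired libraries shows. Gria2 had a median of 1695 CPM (818 to 2144) in excitatory and 1067 CPM (529 to 1669) in inhibitory neurons, and its log2 difference was -0.54 ± 0.08 (edgeR adjusted p = 1.01e-06). Gria3 had 459 CPM (235 to 693) and 274 CPM (132 to 406), with a log2 difference of -0.71 ± 0.07 (edgeR adjusted p = 1.84e-09). Grin2b had 925 CPM (437 to 1118) and 709 CPM (263 to 857), with a log2 difference of -0.46 ± 0.07 (edgeR adjusted p = 3.83e-06).

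Grin2a was lower in inhibitory neurons in 8 of 10 libraries, by 0.25 ± 0.07 on the log2 scale (edgeR adjusted p = 0.00793). This small value did not hold everywhere. It was -0.16 with the stricter cell filter and -0.11 in replicates 1 to 3, and passed in neither. Without the library block Gria2, Gria3, Grin2a and Grin2b no longer passed, with nearly the same differences. Grin1 differed by 0.01 ± 0.06 (edgeR adjusted p = 0.904) and was higher in inhibitory neurons in 6 of 10 libraries.

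**Figure D2:**
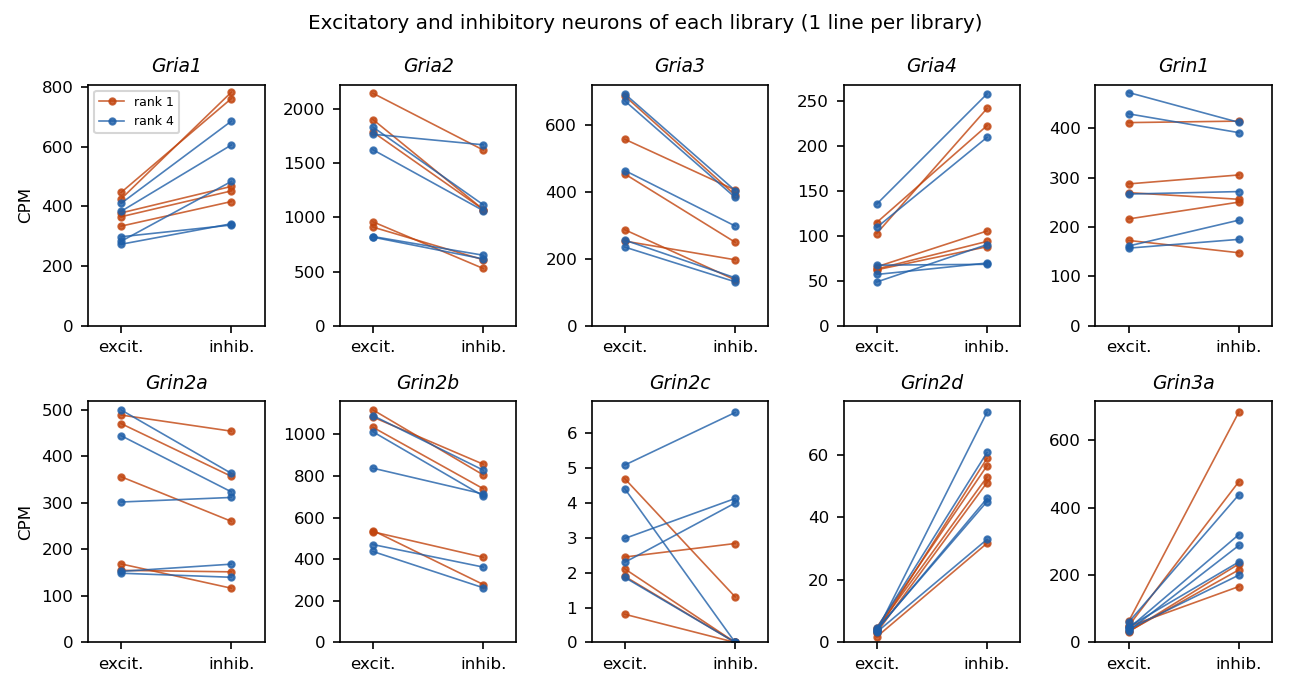
CPM of each subunit gene in the excitatory (left) and inhibitory (right) neurons of the 10 libraries, 1 line per library, coloured by rank. Lines rise in all libraries for Gria1, Gria4, Grin2d and Grin3a and fall in all for Gria2, Gria3 and Grin2b, and the axes differ between genes.

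The difference between inhibitory and excitatory neurons was also tested for a dependence on rank. None of the 9 subunits passed in the edgeR interaction test (0% of all genes passed), and 0 reached an unadjusted p of 0.05. The share of all genes at that unadjusted threshold is not given here. The largest value was 0.28 ± 0.28 on the log2 scale for Grin2d (adjusted p = 1.000). Gria2 was at -0.24 ± 0.15, Gria4 at 0.17 ± 0.18, Grin3a at 0.16 ± 0.21, Grin2a at -0.09 ± 0.15, Grin2b at -0.07 ± 0.14, Gria3 at 0.05 ± 0.14, Gria1 at -0.03 ± 0.15 and Grin1 at 0.03 ± 0.14.

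The partners of the receptors were tested in the same fit, in which 25.2% of all genes were higher and 22.7% lower in inhibitory neurons with a median of 0.02. Of the 15 AMPA receptor auxiliary subunits, 5 were higher and 8 lower in inhibitory neurons by edgeR, with a median log2 difference of -0.32. Shisa6 was higher by 3.83 ± 0.19 and Cacng5, a type II TARP, by 3.06 ± 0.31, while Gsg1l had a log2 difference of -1.92 ± 0.12. Of 14 scaffold and trafficking proteins, 3 were higher and 9 lower, with a median of -0.30. Grip1, which binds the tails of GluA2 and GluA3, was higher by 2.02 ± 0.10. Homer1 and Shank2, postsynaptic scaffolds, had log2 differences of -1.34 ± 0.07 and -1.21 ± 0.10.

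Of 9 other ionotropic glutamate receptor genes tested, 4 were higher and 4 lower, with a median of -0.07, against the same 25.2% and 22.7% of all genes. Grik1, a kainate receptor subunit, was higher by 5.17 ± 0.17, and the kainate receptor auxiliary subunits Neto2 and Neto1 by 1.67 ± 0.09 and 1.53 ± 0.10. Adar, Adarb1 and Adarb2, the 3 genes of the editing enzyme family, were higher and serine racemase was lower. Adarb1, whose product edits the Gria2 codon shown above, was higher by 0.55 ± 0.09 (edgeR adjusted p = 6.35e-06). Adarb2, a family member without known editing activity, was higher by 6.53 ± 0.15. Srr, the enzyme that makes the NMDA receptor coagonist D-serine, had a log2 difference of -0.96 ± 0.13.

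Several subunits differed between interneuron types. Grin3a was highest in Sst interneurons, the somatostatin cells that contact distal dendrites. Rank 1 replicates 1, 2, 4 and 5 had 618, 537, 1755 and 1101 CPM there, and rank 4 replicates 1, 3, 4 and 5 had 785, 579, 1169 and 910.3 CPM. Each library lay above every value of the other interneuron types, whose highest was 110.3 CPM in Vip cells. The mean was 932 ± 408 CPM (n = 8), and the paired log2 difference was 4.80 ± 0.97 from Pvalb, 4.44 ± 0.67 from Lamp5 and 3.75 ± 0.89 from Vip interneurons, each in 6 of 6 libraries. After thinning, 55.5% of Sst cells held a Grin3a UMI, against 2.8% of Pvalb cells and 0.7% of microglia. Grin3a was among the 10 leading genes of 3 Sst clusters and of 1 unnamed inhibitory cluster, and it was left out of the genes used to cluster.

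Grin2a separated interneurons along another line. In Lamp5 interneurons, which include neurogliaform cells, rank 1 replicates 1, 2 and 5 had 1139.7, 407 and 1311 CPM and rank 4 replicates 1, 4 and 5 had 834, 1164 and 877 CPM. In Pvalb interneurons, the fast-spiking cells, rank 1 replicates 1, 4 and 5 had 41.8, 77.3 and 70.5 CPM and rank 4 replicates 3, 4 and 5 had 11.0, 74.0 and 156 CPM. The lowest Lamp5 value was above the highest Pvalb value. Over the 4 libraries with both types the paired log2 difference was 3.68 ± 0.89. Sst interneurons lay between them at 304 ± 102 CPM (n = 8) and Vip interneurons at 162 ± 56.8 CPM (n = 6). The level in Pvalb cells was 71.8 ± 48.5 CPM (n = 6). Microglia had 44.9 ± 39.4 CPM over 10 libraries, a set not matched to these 6.

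Gria1 was higher in Pvalb and Sst cells than in Vip and Lamp5 cells. It averaged 859 ± 149 CPM in Pvalb (n = 6) and 724 ± 165 CPM in Sst interneurons (n = 8), but 252 ± 86.5 CPM in Vip and 265 ± 84.9 CPM in Lamp5 interneurons (n = 6 each). The paired log2 difference between Pvalb and Vip cells was 1.74 ± 0.56 in 5 of 5 libraries. Pvalb and Sst cells differed by 0.23 ± 0.20, with Pvalb higher in 5 of 6 libraries. Gria4 was highest in Pvalb cells at 261 ± 116 CPM, and its lead over Sst cells was 0.86 ± 0.78 on the log2 scale in 5 of 6 libraries. The other interneuron means of Gria4 were 162 ± 90.3 CPM in Lamp5, 137 ± 72.0 CPM in Sst and 109 ± 41.6 CPM in Vip cells.

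Vip interneurons, which mostly inhibit other interneurons, had little Gria3. The 6 libraries ran from 15.3 to 162 CPM with a mean of 95.5 ± 59.2 CPM. Microglia had 88.1 ± 87.5 CPM over 10 libraries, a set not matched to these 6. Against pericytes of the same libraries, Vip cells were at -54.9 ± 39.9 CPM and higher in 0 of 6. Sst interneurons had 421 ± 151 CPM, and the log2 difference of Vip from Sst cells was -2.44 ± 1.11 with Vip lower in 6 of 6 libraries. Vip cells held more Gria2 than Pvalb cells, by 0.59 ± 0.30 on the log2 scale in 5 of 5 libraries. Grin2d did not order the interneurons, with means of 47.2 to 62.7 CPM and neighbouring types that differed by less than the SD of their paired difference.

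**Figure D3:**
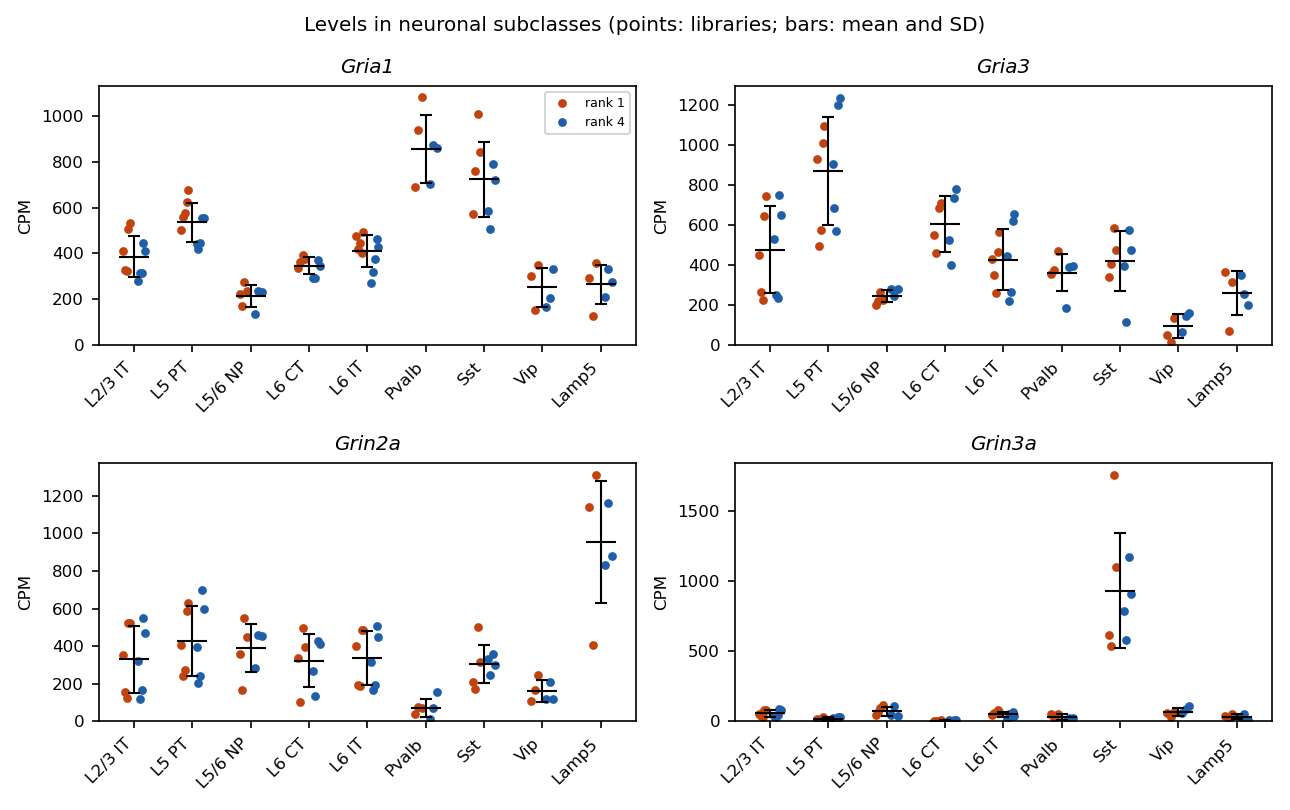
CPM of Gria1, Gria3, Grin2a and Grin3a in 5 excitatory subclasses and 4 interneuron types. Points are libraries coloured by rank, and bars are mean and SD. Sst cells stand alone in Grin3a, Lamp5 cells lead in Grin2a, Vip cells are low in Gria3, and the 2 ranks overlap in each type.

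L5 pyramidal tract (PT) neurons, which project to the brainstem, had the highest mean of Gria3, at 870.0 ± 272 CPM (n = 10). That was 0.61 ± 0.15 above L6 CT neurons on the log2 scale in 8 of 8 libraries and 1.92 ± 0.40 above L5/6 NP neurons in 7 of 7. The same neurons had a Gria4 mean of 43.4 ± 19.2 CPM, which did not differ from that of L6 CT neurons beyond the spread (11.9 ± 19.4 CPM, 6 of 8 libraries), while L5/6 NP neurons had 165 ± 73.2 CPM. L5/6 NP neurons exceeded L5 PT neurons in Gria4 by 1.60 ± 0.54 in 7 of 7 libraries. L5/6 NP neurons had 215 ± 47.9 CPM of Gria1, not beyond the spread from Vip interneurons (29.1 ± 90.6 CPM, 4 of 6 libraries), with a log2 difference from L2/3 IT neurons of -0.92 ± 0.12 in 7 of 7 libraries.

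Grin3a was at background in L6 CT neurons, at 5.45 ± 4.49 CPM (n = 8), below the 7.91 ± 8.89 CPM of microglia. L2/3 IT neurons had 57.0 ± 22.5 CPM and exceeded L6 CT neurons by 2.22 ± 0.34 on the log2 scale in 8 of 8 libraries. L5/6 NP neurons had 73.6 ± 32.0 CPM and L6 IT neurons 52.5 ± 18.3 CPM. Grin2b was highest in L5 PT neurons at 1073 ± 344 CPM, 96.2 ± 77.0 CPM above L2/3 IT neurons in 10 of 10 libraries. Immediate early genes led 1 L6 IT cluster of 470 cells, and Cyr61, another such gene, led 1 L6 CT cluster of 250 cells.

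The make-up of the AMPA transcripts followed the same cell types. Shares are given per type and compared only between types, since UMIs weigh the genes unequally. Gria2 made up 61.2% ± 4.81 of AMPA UMIs in excitatory neurons and 50.6% ± 9.80 in inhibitory neurons (n = 10 each), 10.5 ± 6.28 percentage points more in excitatory neurons and more in 9 of 10 libraries. Pvalb interneurons had the lowest share, 40.0% ± 9.44 (n = 6), and Vip interneurons had 77.6% ± 9.25 (n = 6). The Gria2 share of Pvalb cells was below that of Vip cells by 36.4 ± 10.1 percentage points on average, in 5 of 5 libraries, and below that of Sst cells in 6 of 6.

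Excitatory subclasses lay closer together. The Gria2 share was 72.5% ± 5.62 in L5/6 NP neurons (n = 7), 64.2% ± 5.51 in L6 CT (n = 8), 58.7% ± 5.54 in L6 IT, 58.4% ± 4.50 in L2/3 IT and 56.7% ± 5.34 in L5 PT neurons (n = 10 each). L5/6 NP neurons were above L2/3 IT neurons in 7 of 7 libraries. L2/3 IT and L6 IT neurons differed by -0.23 ± 2.13 points. Astrocytes had 91.2% ± 5.85, above excitatory neurons in 10 of 10 libraries, and oligodendrocyte precursors had 70.0% ± 3.52.

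Among the GluN2 transcripts, the balance of Grin2a and Grin2b differed between interneuron types. Grin2a made up 61.4% ± 5.45 of GluN2 UMIs in Lamp5 (n = 6), 29.0% ± 5.73 in Sst (n = 8), 15.7% ± 6.67 in Vip and 8.01% ± 4.53 in Pvalb interneurons (n = 6 each). Lamp5 cells were above Sst cells by 34.6 ± 6.75 points on average in 6 of 6 libraries. The ratio of Grin2a to Grin2b is widely used as a sign of synapse maturity, and the shares here describe transcripts of adult cells. In the 5 excitatory subclasses the Grin2a share stayed between 23.9% ± 4.61 in L2/3 IT (n = 10) and 36.1% ± 6.54 in L5/6 NP neurons (n = 7). In astrocytes 70.2% ± 18.4 of GluN2 UMIs were Grin2c (n = 10), and the Grin2b level there did not exceed that of microglia.

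**Figure D4:**
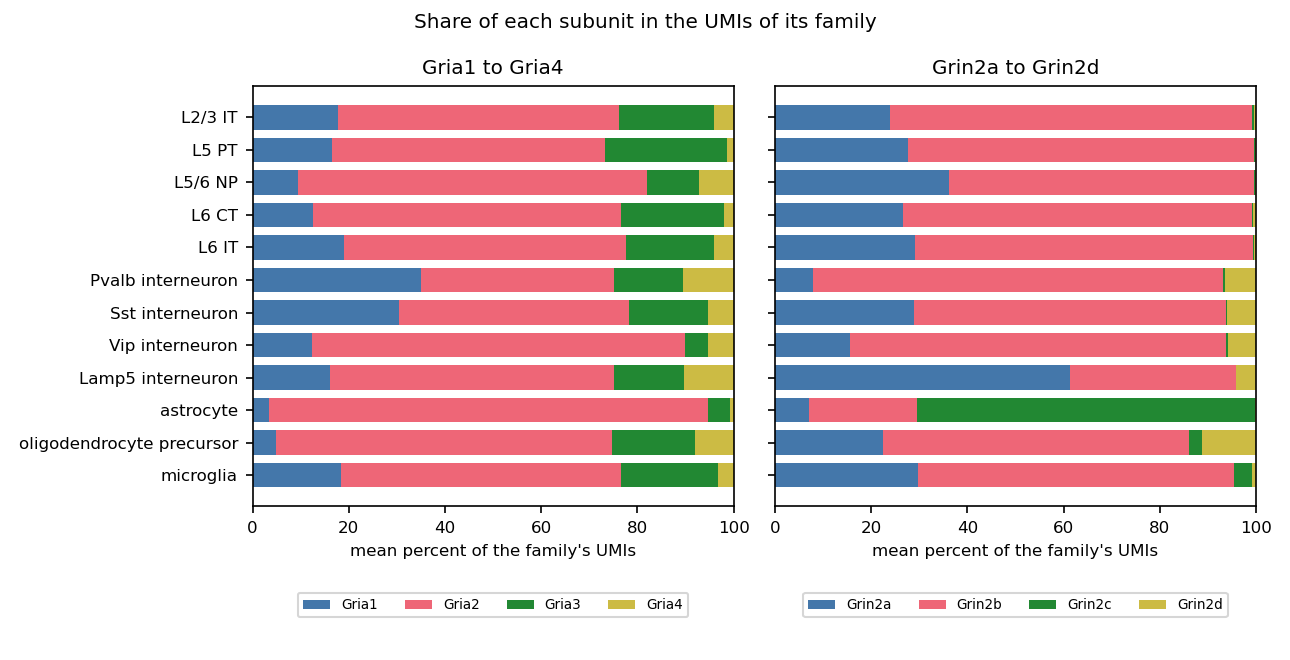
Mean percent of AMPA UMIs (left) and GluN2 UMIs (right) from each subunit gene in 12 cell types. Gria2 fills 40.0% of the AMPA bar in Pvalb and 77.6% in Vip interneurons, and Grin2a fills 61.4% of the GluN2 bar in Lamp5 and 8.01% in Pvalb interneurons.

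No subunit passed a rank test in the fit without a replicate block, and 2 tests passed with it, as given further on. In the edgeR fit with the gene-list version as covariate, 0 of 57 tests of subunits over 9 cell classes passed an adjusted p of 0.05, and 1 had an unadjusted p under 0.05 (2.60% of all genes). Of all genes, 0% passed in excitatory neurons, in inhibitory neurons and in each other class except smooth muscle cells (0.122%). DESeq2 also called 0 of 57, with 1 at an unadjusted p under 0.05. The shares of all genes at that threshold are those of the edgeR fits and are not given for DESeq2. In excitatory subclasses 0 of 38 subunit tests passed (background 0% in 4 subclasses and 0.0165% in L5/6 NP neurons), with 1 at an unadjusted p under 0.05 (3.84% of all genes) and 2 by DESeq2. In interneuron types 0 of 31 passed (background 0% in 3 types and 0.32% in Vip cells), with 0 at an unadjusted p under 0.05 by either tool (5.23% of all genes in the edgeR fit).

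**Figure D5:**
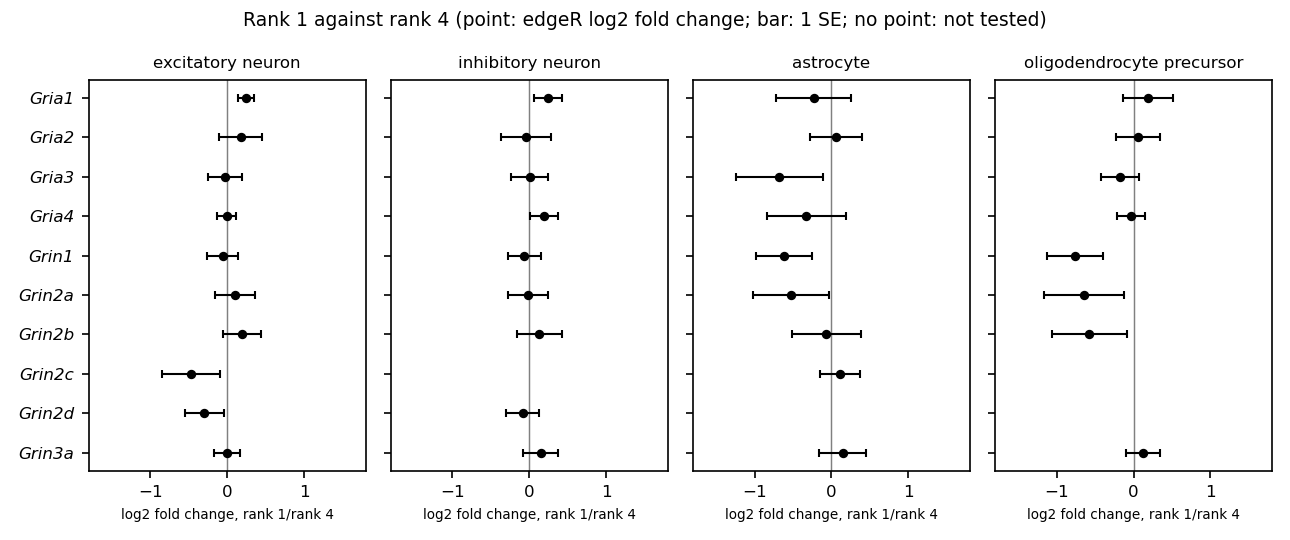
Log2 fold change of each subunit gene between rank 1 and rank 4 in 4 cell classes, with 1 SE from edgeR. Genes without a point did not pass the filter on low counts. The Gria1 point of excitatory neurons is at 0.24, and none of the values passed the test.

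The smallest p in excitatory neurons belonged to Gria1. Rank 1 replicates 1 to 5 had 378, 334, 365, 425 and 446 CPM, and rank 4 replicates 1 to 5 had 273, 298, 283, 409.9 and 383 CPM. Rank 1 was higher in each of the 5 replicate numbers, while the groups overlapped through rank 4 replicates 4 and 5. The log2 fold change was 0.24 ± 0.11 (edgeR unadjusted p = 0.0439, adjusted p = 1.000). Replicates 1 to 3 alone gave 0.32 ± 0.18, and replicates 4 and 5 alone gave 0.16 ± 0.15. All 5 excitatory subclasses and 4 interneuron types had positive values for Gria1, from 0.15 to 0.30.

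The other subunits showed smaller rank differences in excitatory neurons relative to their error. Gria2 was at 0.17 ± 0.28, Grin2b at 0.19 ± 0.25, Grin2a at 0.11 ± 0.26, Gria3 at -0.03 ± 0.22, Gria4 at -0.01 ± 0.12, Grin1 at -0.06 ± 0.20 and Grin3a at -0.00 ± 0.17. Without rank 1 replicate 1 the values of Gria2, Grin2b and Grin2a turned to -0.13, -0.078 and -0.18, and without rank 4 replicate 1 they were 0.42, 0.37 and 0.32. The 2 subunits of fewest UMIs there were Grin2d, at -0.30 ± 0.25, and Grin2c, at -0.47 ± 0.37. The 10 subunits had a median of -0.00, the same as the -0.00 of all genes. With the replicate block still none passed. Gria1 was at 0.24 ± 0.09 (edgeR adjusted p = 0.257), Gria4 at -0.02 ± 0.11 (0.972), Grin3a at 0.02 ± 0.10 (0.974), Grin2d at -0.34 ± 0.27 (0.653) and Grin2c at -0.49 ± 0.30 (0.517). Gria2 was then at 0.16 ± 0.09 (edgeR adjusted p = 0.489), Grin2b at 0.17 ± 0.09 (0.475), Grin2a at 0.09 ± 0.09 (0.726), Gria3 at -0.03 ± 0.09 (0.946) and Grin1 at -0.07 ± 0.11 (0.848). In inhibitory neurons Gria1 was at 0.24 ± 0.18, Gria4 at 0.20 ± 0.18, Grin3a at 0.15 ± 0.23, Grin2b at 0.13 ± 0.29, Gria3 at 0.00 ± 0.24, Grin2a at -0.02 ± 0.26, Gria2 at -0.05 ± 0.33, Grin1 at -0.06 ± 0.21 and Grin2d at -0.08 ± 0.22, and Grin2c was not tested.

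In the edgeR fit without the replicate block, the rank values of Gria2 over the 5 excitatory subclasses ran from -0.11 to 0.16, of Gria3 from -0.25 to 0.00, of Gria4 from -0.20 to 0.24, of Grin1 from -0.24 to -0.03, of Grin2a from 0.03 to 0.16 and of Grin2b from -0.14 to 0.31. Over the 4 interneuron types Gria2 ran from -0.26 to 0.36, Gria3 from -0.69 to 0.36, Gria4 from -0.34 to 0.45, Grin1 from -0.28 to -0.02, Grin2a from -0.47 to 0.32 and Grin2b from -0.36 to 0.54. Grin1 was below 0 in all 9 of these types in that fit without passing in any. With the block, run in 7 of them, it was at 0.06 ± 0.20 in Sst cells and -0.00 ± 0.16 in L5/6 NP neurons, and did not pass either. The summed markers of excitatory neurons were lower in rank 1 in some interneuron types. They ran from 183 to 327 CPM in rank 1 and from 422 to 519 CPM in rank 4 in Vip cells, and from 56.2 to 192 CPM and from 309 to 335 CPM in Lamp5 cells, with no overlap in either (n = 3 libraries per rank). In Sst cells (13.1 to 218 and 82.7 to 401 CPM) and Pvalb cells (85.9 to 275 and 77.0 to 321 CPM) the ranks overlapped. The part of RNA from excitatory neurons in the values of these types was not tested. Grin2d was tested in Sst (-0.45) and Pvalb cells (-0.04), Grin3a in Sst cells (0.15) and L2/3 IT (0.02), L5/6 NP (0.49) and L6 IT neurons, and Grin2c in none.

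Among neurons, Grin3a in L6 IT cells had the only other unadjusted p under 0.05 in the edgeR fit without the replicate block. Rank 1 replicates 1 to 5 had 43.1, 62.4, 57.4, 79.0 and 66.2 CPM and rank 4 replicates 1 to 5 had 18.9, 56.6, 36.7, 68.7 and 35.9 CPM. Rank 1 was higher in each replicate number, and the groups overlapped. The log2 fold change was 0.60 ± 0.25 (edgeR unadjusted p = 0.0267, adjusted p = 1.000), and with the block it was 0.64 ± 0.18 (adjusted p = 0.0923). Leaving out rank 4 replicate 5 gave 0.35, and leaving out rank 4 replicate 4 gave 0.90.

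In oligodendrocyte precursors Grin1 in rank 1 replicates 1 to 5 was at 31.3, 18.3, 14.9, 26.5 and 79.6 CPM, and in rank 4 replicates 1 to 5 at 55.2, 10.9, 20.1, 133 and 102 CPM. The groups overlapped, and the log2 fold change was -0.76 ± 0.37 (edgeR unadjusted p = 0.0543, adjusted p = 1.000). Leaving out rank 4 replicate 1 gave -0.43, and leaving out rank 1 replicate 1 gave -1.03. These values lie around the Grin1 level of microglia given above. The 6 excitatory-neuron markers summed to 286 CPM (119 to 622) in rank 1 and 405 CPM (127 to 772) in rank 4 in these precursors, and their part in the Grin1 value was not tested.

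Outside neurons the subunits had these rank values in the fit without a replicate block, none of which passed. In astrocytes Gria3 was at -0.68, Grin1 at -0.62, Grin2a at -0.53, Gria4 at -0.33, Gria1 at -0.23, Grin2b at -0.07, Gria2 at 0.06, Grin2c at 0.11 and Grin3a at 0.15. In oligodendrocyte precursors Grin2a was at -0.65, Grin2b at -0.58, Gria3 at -0.18, Gria4 at -0.03, Gria2 at 0.06, Grin3a at 0.12 and Gria1 at 0.19. In microglia the 6 tested subunits (Gria1 to Gria3, Grin1, Grin2a and Grin2b) lay between -0.23 and 0.14. With the block Grin1 in astrocytes was at -0.75 ± 0.19 (edgeR adjusted p = 0.0509) and Grin2a there at -0.64 ± 0.18 (0.0738). Grin1 in oligodendrocyte precursors was then at -0.80 ± 0.24 (edgeR adjusted p = 0.226). The excitatory-neuron markers of astrocytes summed to 272 CPM in rank 1 and 402 CPM in rank 4, lower in rank 1 in 5 of 5 replicate pairs. The part of these markers in the values of astrocytes and precursors was not tested.

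In cells of the vessel wall each subunit tested had a value below 0, and none passed in the fit without the replicate block. In endothelial cells Gria2 was at -0.51, Grin2b at -0.52, Grin1 at -0.65, Grin2a at -0.80, Gria3 at -0.81 and Gria1 at -0.14, a median of -0.59 against -0.01 for all genes. The excitatory-neuron markers there summed to 207 CPM in rank 1 and 356 CPM in rank 4. In pericytes Gria1 was at -0.41, Grin2b at -0.50, Gria2 at -0.64 and Gria3 at -0.78, a median of -0.57 against -0.01. The same markers in pericytes summed to 292 CPM in rank 1 and 445 CPM in rank 4. In smooth muscle cells Gria2, the 1 subunit tested, was at -0.52, with marker sums of 199 CPM in rank 1 (n = 3) and 276 CPM in rank 4 (n = 4). The part of neuronal RNA in these values was not tested. In oligodendrocytes Gria1 was at 0.37, Gria3 at -0.08, Grin2b at -0.14 and Gria2 at -0.24.

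With the replicate number as a block, 2 of 56 subunit tests in cell classes passed, both for Gria3 and both lower in rank 1, and 16 of the 56 had an unadjusted p under 0.05. Over all genes of the same classes that share was 10.7% with the block and 2.60% without it. With 3 groups of replicate numbers as covariate (1, 2 and 3, 4 and 5) 0 of 57 passed and 14 had an unadjusted p under 0.05, against 0.0114% and 9.32% of all genes. These groups were formed after seeing the data, and no label or header names them as batches. Without replicates 2 and 3 the counts were 0 and 21 of 70, against 0.00925% and 7.01% of all genes. The share of all genes that passed with the block was 0.423% in excitatory neurons, 0.0885% in inhibitory neurons, 0.027% in oligodendrocyte precursors and 0.019% in microglia, where no subunit did. None of 38 tests passed in excitatory subclasses with the block (background from 0.0673% in L5 PT to 0.483% in L6 CT neurons, with 6 at an unadjusted p under 0.05, a threshold that 8.86% of all genes reached). In astrocytes, rank 1 replicates 1 to 5 had 45.1, 7.97, 9.89, 42.5 and 130.5 CPM of Gria3 and rank 4 replicates 1 to 5 had 87.8, 4.98, 10.0, 154 and 141 CPM. The blocked log2 fold change was -0.78 ± 0.18 (edgeR adjusted p = 0.0344, background 0.442%), against -0.68 ± 0.57 without the block (adjusted p = 1.000). Without rank 4 replicate 1 the unblocked value was 0.10. The mean over all 10 libraries, 63.4 ± 59.9 CPM, was below the 88.1 ± 87.5 CPM of microglia.

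In endothelial cells, which line blood vessels, Gria3 in rank 1 replicates 1 to 5 was at 48.0, 10.6, 3.31, 45.9 and 101 CPM, and in rank 4 at 83.3, 14.4, 13.4, 119.7 and 155 CPM. The mean over all 10 libraries was 59.5 ± 52.8 CPM, also below microglia. With the block the other 5 subunits tested there were also below 0, from -0.23 for Gria1 to -0.80 for Grin2a, and did not pass. The blocked log2 fold change of Gria3 was -0.85 ± 0.18 (edgeR adjusted p = 0.00716, background 1.66%), against -0.81 ± 0.50 without the block (adjusted p = 1.000). With rank 4 replicate 1 left out the unblocked value was -0.27, and with rank 1 replicate 1 left out it was -1.28. The 6 markers of excitatory neurons were also lower in rank 1 in both types. Their sum in astrocytes was 272 CPM (128 to 560.1) in rank 1 and 402 CPM (131 to 655) in rank 4, and in endothelial cells 207 CPM (29.8 to 546) and 356 CPM (64.7 to 735). It was lower in rank 1 in 5 of 5 replicate pairs in both types, while Gria3 was lower in 4 of 5 pairs in astrocytes and 5 of 5 in endothelial cells, and at most 1 of the 6 markers was at 0 in any library. In microglia Gria3 was lower in rank 1 in 2 of 5 pairs (0.10 ± 1.03 on the log2 scale) and the marker sum in 1 of 5 (0.06 ± 0.96). The part of neuronal RNA in the Gria3 result was not tested.

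None of the partner genes passed a rank test in any cell class or subclass in the edgeR fit with the version covariate. In excitatory neurons the scaffold genes with the smallest p were Homer1, at -0.51 ± 0.19 (unadjusted p = 0.0181, adjusted p = 1.000), and Shank2, at -0.18 ± 0.13. Those of the other lists were Grik4 at 0.31 ± 0.20 and Grik2 at 0.18 ± 0.12, Prrt1 at -0.23 ± 0.16 and Shisa7 at -0.15 ± 0.14, and Adarb2 at 0.48 ± 0.49 and Adarb1 at -0.11 ± 0.13. The medians of the 4 lists were -0.08 for auxiliary subunits, -0.06 for scaffolds, 0.18 for other receptor subunits and -0.02 for editing enzymes and serine racemase. With the block, Frrs1l and Dlgap1 passed in endothelial cells, at -0.79 ± 0.21 and -0.71 ± 0.18 (edgeR adjusted p = 0.0347 and 0.0223), where 1.66% of all genes passed. The excitatory-neuron marker sum of these cells was lower in rank 1 in 5 of 5 pairs, as given above, and its part in these values was not tested. The products are an AMPA receptor assembly factor and a postsynaptic scaffold.

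The make-up of the receptors was set side by side for the ranks as a description, with no test. In excitatory neurons Gria2 made up 61.7% ± 5.46 of AMPA UMIs in rank 1 and 60.6% ± 4.63 in rank 4, and Grin2a made up 26.4% ± 4.30 and 27.5% ± 3.53 of GluN2 UMIs (n = 5 libraries per rank). In inhibitory neurons the Gria2 share was 48.6% ± 10.1 and 52.6% ± 10.2. In astrocytes the Grin2c share was 73.7% ± 14.5 and 66.6% ± 22.8. Each of these differences was smaller than the SD within a rank, which holds the spread that same-numbered libraries share. Within the 5 replicate numbers, the Gria2 share of inhibitory neurons was lower in rank 1 in 5 of 5 pairs, by a mean difference of -4.01 ± 1.59 percentage points, and their Gria1 share was higher in 5 of 5 pairs, by 3.36 ± 1.37 points. The markers of excitatory neurons summed to 131 CPM (35.3 to 275) in rank 1 and 257 CPM (32.9 to 464) in rank 4 in these inhibitory neurons, and the markers of inhibitory neurons to 4151 and 3625 CPM. The part of RNA from excitatory neurons in these share differences was not tested. Within interneuron types the paired Gria2 difference was 0.19 ± 2.74 points in Sst cells and 0.10 ± 5.26 in Vip cells (3 pairs each), and -3.46 ± 2.81 in Pvalb and -3.00 ± 0.75 in Lamp5 cells (2 pairs each). The Gria1 difference was 1.46 ± 3.03 points in Sst, 2.72 ± 2.99 in Vip, 3.31 ± 3.38 in Pvalb and 2.68 ± 0.30 in Lamp5 cells. In inhibitory cells left unnamed it was 6.59 ± 0.97 points, higher in rank 1 in 3 of 3 pairs, and their Gria2 difference was -2.76 ± 4.94 points. The excitatory-neuron markers of these unnamed cells ran from 261 to 484 CPM in rank 1 and from 601 to 834 CPM in rank 4. Excitatory-neuron markers were also without overlap lower in rank 1 in Vip and Lamp5 cells, as given above. The part of these markers in all these share differences was not tested. In excitatory neurons the Gria1 share was higher in rank 1 in 5 of 5 pairs (1.12 ± 0.77 points) and the Gria3 share lower in 5 of 5 (-1.99 ± 1.57 points). The paired difference was smaller than its SD for the Gria2 share (1.13 ± 1.59 points) and the Grin2a share (-1.02 ± 1.88 points) of excitatory neurons and for the Grin2c share of astrocytes (7.10 ± 10.6 points). The paired shares named here were picked after their values were seen.

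For each subunit, the genes whose levels followed it most closely over 20 cell types were named. Likeness was Pearson's r of log2 CPM with 10 added, over types that share libraries and depth. Grin1 was followed by Syp (r = 0.99), Syt1 (0.99) and Klc1 (0.99), the first 2 of which encode synaptic vesicle proteins. Grin2c was followed by Cyp4f15 (0.99), Slc39a12 (0.98) and Phkg1 (0.98), and Grin2d by Dlx5 (0.96), Dlx6 (0.95) and Gad1 (0.95), an enzyme that makes GABA and a marker used for naming. Grin2b was followed by Fbxo41, Unc13a and Ube2o (0.98 each) and Grin2a by Rbfox3 (0.97), Actl6b (0.95) and Celf4 (0.95).

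Among the AMPA genes, Gria1 was followed by Ndrg4 (0.97), 2900097C17Rik (0.96) and Tubb3 (0.96), and Gria2 by Dlgap1 (0.97) and Tia1 (0.96). Gria3 was followed by Ralyl (0.96), Rnf208 (0.95) and Naa25 (0.95), and Gria4 by Slc24a5 (0.96) and Dpp6 (0.94). Grin3a had the loosest company, with Sstr1 (0.83), a somatostatin receptor gene, Elfn1 (0.82), a marker used to name Sst cells, and Slitrk3 (0.80).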

How the data were processed

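The deposited files of each library held raw UMI counts per gene and cell barcode, a gene list and a barcode list. Per the file headers, replicates 1 to 3 were written by software version 3.1.0 and replicates 4 and 5 by 4.0.0, whereas the submitters' processing notes name Cell Ranger 4.0.0 and mm10. Only the 30406 genes of both lists were used. Cells with at least 500 genes and at most 15% mitochondrial UMIs were kept after removal of 4820 simulated-doublet neighbours (0.8% per 1000 barcodes), which left 44931 of 64937 barcodes. Clustering used 2000 variable genes without 20 genes with Gria, Grin, Grik or Grid symbols, 30 components, 15 neighbours and Leiden resolution 1 (igraph 0.11.9). Clusters were named from fixed markers, and 2 of 29 clusters, 5 of 17 excitatory and 4 of 14 inhibitory subclusters stayed unnamed. No cluster was named L5 IT.

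UMI counts were summed per library and type (at least 20 cells) and tested with edgeR 4.0.16 (TMM, filterByExpr, quasi-likelihood, Benjamini-Hochberg over all genes of the type), with version as covariate for rank and library as block for excitatory against inhibitory neurons. DESeq2 1.42.0 was an alternative. The procedure was tested on simulated data. The members and lists were chosen with earlier results of these data known. The rule named all 10 members in every comparison. They are given by ranges in the subclasses and microglia, and values from the replicate block are given only for some cell types. Of each list, genes past the threshold were named, otherwise the 2 of smallest p in excitatory neurons, and for the neuron classes the 3 of largest change. Same-numbered libraries of the 2 ranks deviated together (correlations 0.684, 0.757, 0.699, 0.776 and 0.874 for replicates 1 to 5), each above the 0.1 set for pairing, so the numbers were taken to pair them. The evidence for pairing was limited: the highest correlations with another number were -0.0339, 0.707, 0.721, 0.703 and 0.865, and after removal of version the same-number values were 0.760, 0.501, 0.266, 0.163 and 0.163 against 0.0957, 0.265, 0.420, 0.427 and 0.368. P-values of the rank fits without the replicate block measure the spread between these pools of mice. With a block of library or replicate number, they measure how the difference within a library or pair varied. Pore codons and positions were read from GENCODE transcripts on GRCm38. Counting error in single UMI shares is not included in SDs. One pore stretch and 2 genes of like pattern are not reported here.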

Additional observations from a re-analysis of the deposited data

Results flagged for a closer look

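Grin2d in inhibitory neurons of rank 1 replicate 4 was at 31.7 CPM, far below the next library of its rank at 51.1 CPM. Grin1 in astrocytes of rank 1 replicate 5 was at 79.4 CPM, far above the next at 30.2 CPM, and Grin1 in oligodendrocyte precursors of the same library was at 79.6 CPM against 31.3 CPM. In each case the gap to the nearest library was more than 0.710 of the whole range of the 5 libraries. Of 68 groups examined, 3 were marked in this way, and chance marks about 1 in 20, or 3.4. The excitatory-neuron marker sum of rank 1 replicate 5 was the highest of its rank in astrocytes, at 560.1 CPM, and its part in the Grin1 values was not tested.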

How the results depend on the processing

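With the replicate block, calls on subunits in cell classes went from 0 to 2 (Gria3 in astrocytes at -0.78 and in endothelial cells at -0.85), and changed no other subunit call where it was run. In interneuron types it was run for Sst and Vip cells (16 subunit tests), and Pvalb and Lamp5 cells, with 2 replicate numbers in both ranks, have no blocked fit. Leaving out single libraries gave 0 subunit calls in every rank comparison without the replicate block, and the blocked fit was not rerun without single libraries. Without the library block 4 in place of 8 subunits passed between the neuron classes. There Gria2 was at -0.50, Gria3 at -0.69, Grin2a at -0.23 and Grin2b at -0.42. Grin2a did not pass with the stricter filter (-0.16) or in replicates 1 to 3 (-0.11). Grin1, near 0, turned to -0.033 with DESeq2, -0.023 with DESeq2 size factors, -0.11 without the count filter, -0.090 in replicates 4 and 5 and -0.047 without replicates 2 and 3, and leaving out single libraries gave -0.064 to 0.053. Without rank 1 replicate 1 the rank values in excitatory neurons turned to -0.13 for Gria2, -0.18 for Grin2a and -0.078 for Grin2b, and without rank 4 replicate 1 they were highest, at 0.42, 0.32 and 0.37. Gria3 in astrocytes ran from -1.18 without rank 1 replicate 1 to 0.10 without rank 4 replicate 1. The 13 levels and 10 shares recomputed moved by less than 1 SD under each setting tried, and the other levels and shares were not recomputed. Calls over all genes moved more: between the neuron classes from 5187 to 2801 without the block and 3232 in replicates 1 to 3, and between ranks from 2 to 244 in cell classes, 1 to 124 in excitatory subclasses and 8 to 25 in interneuron types with the replicate block. Groups of replicate numbers as covariate (1, 2 and 3, 4 and 5), which no label names as batches, and fits without replicates 2 and 3 were chosen after seeing the data, and gave 0 subunit calls between ranks. The cause of these shifts was not tested. Few Vip, Lamp5 and Pvalb cells per library limit those types to 6 libraries.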
